A study of Mus musculus with 12 samples.

Results

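The genes described here are 34 glycolysis and hypoxia-response genes of the mouse, out of 54100 annotated features that all 12 libraries of the study share. They were taken from a list of names. It holds 16 glycolytic enzymes, the glucose transporter Slc2a1 and the lactate transporter Slc16a3, the flux-regulating kinases Pfkfb3 and Pdk1, the HIF alpha subunits Hif1a and Epas1, and 12 other targets of HIF. All 34 were found by their Ensembl identifiers, with Ero1l as the older name of Ero1a, and each had counts in all 12 libraries. The study measured polyadenylated RNA in 3 sets of cells, each with 2 treated and 2 control libraries, around casein kinase 1 alpha (CK1a, gene Csnk1a1), a kinase of the beta-catenin destruction complex. In the first set, cells labelled as TREX knockout bone marrow-derived macrophages (BMDM) received SSTC3, a small-molecule activator of CK1a, or the solvent DMSO. The cell name there counts up over the 4 libraries, from TREX1-KO to TREX4-KO, so each of these libraries carries a name of its own. In the second set, mouse embryonic fibroblasts (MEF) labelled as overexpressing CK1a stood against an overexpression control. In the third, MEF with a CK1a knockdown by siRNA stood against a knockdown control. All samples carry the C57BL/6J label, and the sources used here give no dose and no duration. None of the labels says whether the 2 libraries of a group came from separate cultures, so the p-values below reflect how far these libraries varied, and that variation may be only technical.

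Glycolysis breaks glucose down to pyruvate in the cytosol, and lactate dehydrogenase turns pyruvate into lactate when it is not passed on to mitochondria. Hypoxia-inducible factors (HIF) are pairs of an oxygen-regulated alpha subunit and the constant subunit ARNT. Prolyl hydroxylases such as EGLN1 and EGLN3 mark the alpha subunit for destruction when oxygen is present, and without oxygen HIF switches on glycolytic enzymes, glucose uptake, blood vessel growth and pH control, so that most genes of the list are known as its targets. HIF activity is regulated largely on the alpha proteins, which RNA counts do not measure.

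HIF binds DNA at a short core, ACGTG or GCGTG. Promoters of 6 genes are shown because they belong to genes that rose with the knockdown (Ldha, Pgk1, Hk2 and Bnip3) and to genes that fell with it (Slc2a1 and P4ha1), and all of them hold that core. Each run is the 250 bases before the RefSeq transcription start (build GRCm38.p6), printed 5′ to 3′ on the gene's strand, with ACGTG and GCGTG and their reverse complements CACGT and CACGC in capitals. The windows are chr7:46845554-46845803 (plus strand) for Ldha, chrX:106186850-106187099 (plus strand) for Pgk1, chr6:82774455-82774704 (minus strand) for Hk2, chr7:138909507-138909756 (minus strand) for Bnip3, chr4:119108495-119108744 (plus strand) for Slc2a1 and chr10:59323046-59323295 (plus strand) for P4ha1.
Ldha: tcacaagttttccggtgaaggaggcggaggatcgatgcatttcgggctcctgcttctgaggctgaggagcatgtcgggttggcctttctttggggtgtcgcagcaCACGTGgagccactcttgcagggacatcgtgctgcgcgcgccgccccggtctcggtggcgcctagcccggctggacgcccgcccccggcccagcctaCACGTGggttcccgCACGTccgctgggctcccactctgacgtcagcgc
Pgk1: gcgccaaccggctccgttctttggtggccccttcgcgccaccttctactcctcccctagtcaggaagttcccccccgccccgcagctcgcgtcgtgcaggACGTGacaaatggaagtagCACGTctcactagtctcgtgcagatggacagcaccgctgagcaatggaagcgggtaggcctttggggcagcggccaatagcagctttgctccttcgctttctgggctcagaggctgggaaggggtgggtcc
Hk2: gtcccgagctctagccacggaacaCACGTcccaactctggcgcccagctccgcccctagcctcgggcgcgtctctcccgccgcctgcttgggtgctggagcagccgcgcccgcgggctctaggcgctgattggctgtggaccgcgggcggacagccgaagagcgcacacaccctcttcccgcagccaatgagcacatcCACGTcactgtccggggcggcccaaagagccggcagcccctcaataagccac
Bnip3: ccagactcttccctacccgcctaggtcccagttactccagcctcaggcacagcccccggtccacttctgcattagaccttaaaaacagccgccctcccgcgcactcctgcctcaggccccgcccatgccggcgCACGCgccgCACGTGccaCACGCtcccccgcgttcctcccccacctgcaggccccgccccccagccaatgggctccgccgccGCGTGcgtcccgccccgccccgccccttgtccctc
Slc2a1: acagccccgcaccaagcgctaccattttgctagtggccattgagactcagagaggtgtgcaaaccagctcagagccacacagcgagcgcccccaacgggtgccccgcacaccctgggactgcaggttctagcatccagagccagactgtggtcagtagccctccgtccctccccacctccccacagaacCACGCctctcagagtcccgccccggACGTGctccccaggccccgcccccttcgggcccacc
P4ha1: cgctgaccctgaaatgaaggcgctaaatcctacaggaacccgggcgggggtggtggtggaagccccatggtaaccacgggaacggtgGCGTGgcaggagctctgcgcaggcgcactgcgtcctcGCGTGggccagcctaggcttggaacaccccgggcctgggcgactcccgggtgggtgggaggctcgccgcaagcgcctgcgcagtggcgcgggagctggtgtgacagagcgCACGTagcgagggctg
Of the 34 genes, 32 had a RefSeq promoter, and Epas1 and Ndrg1 were not matched. In windows from 250 bases before to 50 bases after the start, searched on both strands, ACGTG was present for 25 of 32 genes, for 10 of 16 enzymes and for 11 of 11 other HIF targets, while 21.8% of all genes held it. Some genes have several promoters and were counted when any of them held the core. Counted by promoter, 29 of the 48 promoters of these genes held ACGTG, beside 19.6% of all 32851 promoters. The shares over all genes and promoters were not matched for base content. Either core was present for 29 of the 32. The exceptions were Gpi1, Tpi1 and Eno2, and the share among all genes was 46.7%. CACGTG, an E-box that contains ACGTG, occurred for 5 of the 32 genes, beside 8.09% of all genes. By promoter it occurred in 5 of 48, beside 7.15% of all promoters. Whether the core goes with the direction of change was not tested. With the knockdown, 21 of the 23 genes that rose and 5 of the 6 matched genes that fell held either core, beside 46.7% of all genes. ACGTG was held by 17 of those 23 and 5 of those 6, beside 21.8% of all genes. In this comparison 28.3% of all genes tested rose and 26.4% fell. These matches are letters in a window and show no binding.

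Library totals ran from 16063627 to 19427506 counts. Csnk1a1 itself fell with the knockdown, at 172 and 169 CPM against 325 and 354 CPM (log2 fold change −0.96 ± 0.05, adjusted p = 2.88e-27). In the libraries labelled overexpression it stood at 229 and 244 CPM against 238 and 235 CPM (adjusted p = 0.901), so the label was not borne out by the counts of this gene, and directions in that set are those of the libraries so labelled. With SSTC3 it was 426 and 424 CPM against 413 and 430.0 CPM (adjusted p = 0.111). In the libraries labelled BMDM, 18 macrophage markers summed to 9.08 to 11.1 CPM, 8 to 12 of them were at 0, and Adgre1, Itgam, Tyrobp and the C1q genes had no count, while 12 fibroblast markers together reached 5372 to 6812 CPM. In the sets labelled MEF the same macrophage list gave a sum of 14.0 to 17.0 CPM (overexpression) and of 254 to 302 CPM (knockdown). Fibroblast markers were lower in the treated libraries of all 3 sets, at 5372 to 5471 against 6570.0 to 6812 CPM with SSTC3, 2458 to 2489 against 2668 to 2698 CPM with the overexpression label and 767 to 768.5 against 979 to 994 CPM with the knockdown. Dcn, Lum and Twist1 had no count in the 4 knockdown-set libraries. Lum also had none in the libraries with SSTC3 and in the overexpression set, and Dcn none in the overexpression controls. A sum of 8 neural and glial markers was 32.8 to 34.1 CPM with SSTC3 and 14.7 to 15.2 CPM with DMSO. That sum was 106 to 107 CPM with the overexpression label against 117 to 118 CPM. In the knockdown libraries it was 2.11 to 2.52 CPM against 2.63 to 3.98 CPM. The part of these markers in the results below was not tested. CPM here are counts scaled by the library total.

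Across all 34 genes, 23 rose and 7 fell with the knockdown, of 33 tested, since Epas1 had too few counts. The threshold throughout was an adjusted p of 0.05 from edgeR's quasi-likelihood test with Benjamini-Hochberg adjustment over all genes of a comparison. The background with the knockdown was high, as 54.7% of all genes tested passed, 28.3% higher and 26.4% lower. With SSTC3 9 rose and 13 fell, beside 53.6% of all genes (27.1% higher and 26.5% lower), so the count of genes that passed was near the background. In the libraries labelled overexpression 3 rose and 9 fell, beside 13.3% of all genes (5.78% higher and 7.57% lower). By CPM alone, the 2 treated libraries lay apart from the 2 controls for 31 of 34 genes with the knockdown, 28 with SSTC3 and 23 with the overexpression label, where 75.7%, 75.3% and 53.8% of all genes tested did so. Ero1l was the only gene of the 34 that rose in all 3 comparisons, and Egln3 and P4ha2 passed in none.

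Most glycolytic enzymes rose with the knockdown, while in the other sets most of those that passed the test fell. With the knockdown, 14 of 16 enzymes rose, 1 fell and 1 did not pass the test, with a median log2 fold change of 0.57, beside −0.01 over all 14832 genes tested. With SSTC3, 3 enzymes rose and 8 fell (median −0.11, beside 0.01 over 14151 genes). Under the overexpression label none rose and 9 fell (median −0.10, beside 0.00 over 13958 genes). Among the other HIF targets, 6 of 12 rose with the knockdown and 4 fell (median 0.16), with SSTC3 5 rose and 2 fell (median 0.03), and with the overexpression label 2 rose and none fell (median −0.03).

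**Figure D1:**
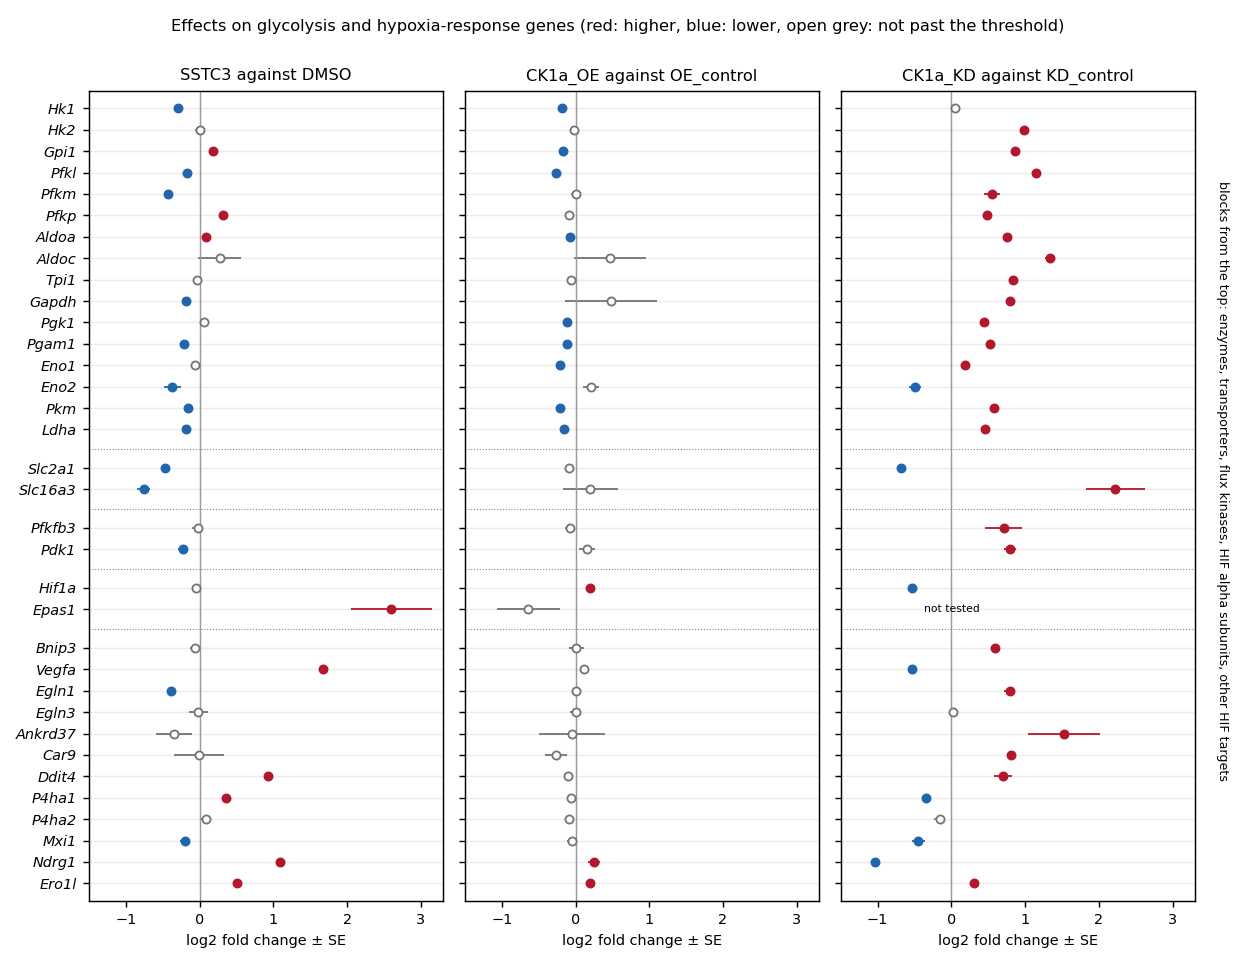
Log2 fold change with its standard error (x axis) of the 34 genes (y axis, in blocks by role) in the 3 comparisons (panels). Red points passed the test as higher, blue as lower and open grey points did not pass. In the knockdown panel 14 of the 16 enzymes are red, to the right of 0. Vegfa and Ndrg1 lie to the left there and to the right in the SSTC3 panel.

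Enzymes of the upper part of glycolysis were among those with the largest changes in the knockdown set. Aldoc, the brain-type aldolase, had 1943 and 1810 counts against 673 and 660 (log2 fold change 1.34 ± 0.07, adjusted p = 1.18e-25). Pfkl, the liver-type phosphofructokinase, which catalyses the main rate-limiting step, had 262 and 257 CPM against 125 and 115 CPM (1.15 ± 0.05, adjusted p = 5.94e-30). Hk2, the inducible hexokinase that traps glucose in the cell, had 299 and 304 CPM against 154 and 158 CPM (0.99 ± 0.05, adjusted p = 4.96e-28). In each of these 3 genes both knockdown libraries lay above both controls. Gpi1, which converts glucose 6-phosphate to fructose 6-phosphate, had 838 and 857 CPM against 499 and 455 CPM (0.86 ± 0.04, adjusted p = 2.56e-26). Pfkp, the platelet-type phosphofructokinase, had 499.5 and 517 CPM against 379 and 369.8 CPM (0.48 ± 0.04, adjusted p = 2.02e-15). Ldha, which makes lactate, had 2121 and 2086 CPM against 1622 and 1536 CPM (0.45 ± 0.04, adjusted p = 2.98e-16). These too were separated between the groups, with a smaller difference for Pfkp and Ldha. The remaining enzymes that rose were Tpi1 (0.84), Gapdh (0.80), Aldoa (0.76), Pkm (0.58), Pfkm (0.55), Pgam1 (0.53), Pgk1 (0.44) and Eno1 (0.18), on the log2 scale. Hk1, the constitutive hexokinase, stood at 154 and 168 CPM against 164 and 154 CPM and did not pass (0.05 ± 0.05, adjusted p = 0.435). Eno2, the neuron-type enolase, was the 1 enzyme that fell, at 39.3 and 40.2 CPM against 61.6 and 53.2 CPM (−0.49 ± 0.08, adjusted p = 2.52e-07).

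Summed over the 16 enzymes, the knockdown libraries held 15164 and 15248 CPM, and their controls 10969 and 10482 CPM, a mean of 1.52% against 1.07% of the library. The 12 other HIF targets summed to 2502 and 2517 CPM in the knockdown libraries and 2504 and 2608 CPM in the controls, where the groups lay close together. These near-equal sums hide changes in both directions, as 6 of the targets rose and 4 fell. Mean Car9 was 488 CPM against 286 CPM in the controls, and mean Ndrg1 329 CPM against 688 CPM. In the SSTC3 set the 2 sums went opposite ways. Of the other targets there, 5 rose and 2 fell, and Vegfa alone went from a mean of 99.1 CPM with DMSO to 302 CPM. The enzymes summed to 12519 and 12593 CPM with SSTC3 and 14164 and 13667 CPM with DMSO, and the other targets to 1245 and 1268 CPM with SSTC3 and 928 and 913 CPM with DMSO. In the overexpression set the enzymes summed to 8473 and 8379 CPM against 9359 and 9283 CPM, and the other targets to 1072 and 1048 CPM against 1066 and 1046 CPM. These sums weigh the most abundant genes most and carry no test.

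**Figure D2:**
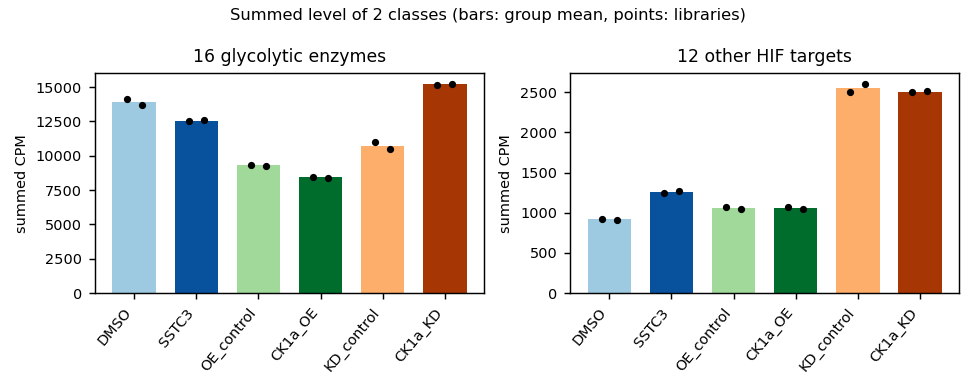
Summed CPM (y axis, from 0) of the 16 glycolytic enzymes (left) and the 12 other HIF targets (right) by group (x axis). Bars are group means and points the 2 libraries. The enzyme bar is highest in the knockdown group, at 15206 CPM. The bars of the other targets differ little between the knockdown and its control, where genes that rose and genes that fell offset each other.

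With SSTC3 the enzymes that changed did so by less, from −0.43 to 0.32 on the log2 scale. Pfkm, the muscle-type phosphofructokinase, had 62.9 and 65.1 CPM against 93.4 and 85.9 CPM (−0.43 ± 0.06, adjusted p = 1.02e-10). Eno2 had 17.1 and 16.3 CPM against 22.1 and 22.7 CPM (−0.37 ± 0.11, adjusted p = 0.0022). Hk1 had 78.4 and 80.1 CPM against 102 and 99.5 CPM (−0.29 ± 0.06, adjusted p = 2.48e-06). These 3 were lower in both treated libraries than in both controls. Pfkp was higher in both treated libraries, at 68.5 and 71.9 CPM against 60.8 and 56 CPM (0.32 ± 0.06, adjusted p = 5.00e-06), as was Gpi1 (log2 fold change 0.18 ± 0.04, adjusted p = 2.85e-05). Hk2 had 59.4 and 62.2 CPM against 62.7 and 63.5 CPM, with a difference of 0.00 ± 0.07, adjusted p = 0.994, and did not pass. Ldha fell to 2049 and 2048 CPM from 2445 and 2362 CPM (−0.18 ± 0.03, adjusted p = 3.82e-07). Pfkl (−0.17), Gapdh (−0.19), Pgam1 (−0.21) and Pkm (−0.16) also fell, Aldoa rose by 0.09 (adjusted p = 0.0163), and Aldoc, Tpi1, Pgk1 and Eno1 did not pass. CPM by library total place genes slightly lower in the SSTC3 libraries than the scaling factors of the test do. With library totals in place of those factors Aldoa no longer passed (0.04, adjusted p = 0.377), and Tpi1 (−0.09) and Eno1 (−0.12) passed as lower. Aldoa also lost its call with no filter (adjusted p = 0.117), with a replicate block (adjusted p = 0.0596) and without the second SSTC3 library (0.06) or the second DMSO library (0.07). Eno1 also passed as lower with RLE size factors (adjusted p = 0.0439), with no filter (adjusted p = 0.0361), in the fit of all 12 libraries (adjusted p = 0.0443) and without the second DMSO library (adjusted p = 0.0219).

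In the set labelled overexpression the differences were small, and those of the enzymes that passed all pointed down. Pfkl had 123 and 119.5 CPM against 143 and 146 CPM (−0.26 ± 0.04, adjusted p = 1.51e-05). Eno1, the main enolase, had 1487 and 1504 CPM against 1716 and 1704 CPM (−0.21 ± 0.02, adjusted p = 1.49e-10). Pkm, pyruvate kinase, which ends glycolysis with pyruvate and ATP, had 2086 and 2046 CPM against 2386 and 2364 CPM (−0.21 ± 0.02, adjusted p = 7.89e-12). In all 3 genes the groups did not overlap. Hk1 had 196 and 192 CPM against 218 and 219 CPM (−0.19 ± 0.04, adjusted p = 0.000277), and Ldha had 1059.5 and 1055 CPM against 1183 and 1157 CPM (−0.16 ± 0.02, adjusted p = 1.25e-06). Gpi1 (−0.17), Pgk1 (−0.12), Pgam1 (−0.11) and Aldoa (−0.08) made up the 9. Hk2 had 78.5 and 73.7 CPM against 72.6 and 79.8 CPM (−0.02 ± 0.06, adjusted p = 0.901), and Pfkp had 144 and 146 CPM against 153 and 153 CPM (−0.09 ± 0.04, adjusted p = 0.139), and neither passed. Gapdh had 22.9 and 9.3 CPM against 10.9 and 12 CPM. There 1 library labelled overexpression stood apart at 22.9 CPM, and without the other one Gapdh passed as higher (log2 fold change 0.99, adjusted p = 8.86e-10). Without the first control library Pgam1 no longer passed (−0.05, adjusted p = 0.418), and without either control library or the second treated library Aldoa did not (−0.09 to −0.07). Aldoa lost its call as well with library totals (adjusted p = 0.0625), with a replicate block (adjusted p = 0.069), with no filter (adjusted p = 0.0717), in the fit of all 12 libraries (adjusted p = 0.105) and with DESeq2 (adjusted p = 0.128), so its call rests on the settings chosen.

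Several enzymes have copies in the genome that share sequence with them, which the authors' counting could split or discard. Stretches of 75 bases of the coding transcript that also occur in another gene made up 80.3% for Gapdh, 67.5% for Pgk1, 65.4% for Eno1, 40.6% for Pgam1 and 46.3% for Bnip3, so the levels of these genes are uncertain. Smaller shares were found for Pkm (19.6%), Pfkp (16.6%), Gpi1 (14.8%) and Ndrg1 (12.1%). Genes on the opposite strand overlap 26.4% of the exons of Ankrd37, 22.3% of those of Bnip3 and 11.5% of those of Gpi1, and since no source states that counting used strand, such reads cannot be told apart. Genes on the same strand overlap 15.3% of the exons of Pkm and 10.2% of those of Pfkm, where strand would not separate the reads. Gapdh, usually among the most abundant transcripts of a cell, was counted at 19.7 ± 0.174 CPM per kb (SD, n = 2) in the knockdown controls, beside 518 ± 17.2 CPM per kb for Aldoa. The near-copy Eno1b followed Eno1 in direction, at 0.12 (adjusted p = 0.00768) with the knockdown and −0.19 (adjusted p = 0.000469) with the overexpression label. A second Ensembl entry of Aldoa, not used here, had 6.54 and 8.04 CPM with the knockdown against 15.8 and 16.3 CPM in the controls. The entry used went the other way, at 2519 and 2466 CPM against 1543 and 1472 CPM. With only the enzymes that share under 10% of these stretches, the median was 0.76 with the knockdown, −0.17 with SSTC3 and −0.06 with the overexpression label.

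Isoenzyme shares are given as shares of the family's CPM per kb of exon, in each library, and were not tested. Of the hexokinases Hk1 and Hk2, Hk2 took 73.6% and 72.1% in the knockdown libraries and 57.2% and 59.5% in their controls. It took 52% and 52.6% with SSTC3 and 46.7% and 47.7% with DMSO. In the overexpression set it took 36.4% and 35.5% and, in the controls, 32.3% and 34.2%. Both treated libraries were thus above both controls in each set, by a wide margin only with the knockdown. With SSTC3 and with the overexpression label Hk1 fell, while Hk2 itself did not pass. With no length scaling Hk2 took 43.1% and 43.7% with SSTC3 and 38% and 39% with DMSO. Of the 3 phosphofructokinases, Pfkl took 47.2% and 45.7% with the knockdown and 36.3% and 34.4% in the controls, while the share of Pfkp was 44.9% and 45.8% and 54.8% and 55.3%. The levels of these shares depend on the exon length used. With no length scaling Pfkl took 33.4% and 32.2% with the knockdown and Pfkp 63.8% and 64.8%, so which of the pair is larger in those libraries is not settled by these counts. With SSTC3, Pfkp took 8.09% and 8.16%, beside 5.68% and 5.5% with DMSO, and with no length scaling 17.4% and 17.5% beside 12.9% and 12.5%. On both scales the share of Pfkp was higher with SSTC3 than with DMSO and lower with the knockdown than in its controls (73% and 73.7% unscaled), although its level rose in both. Pfkl rose more than Pfkp with the knockdown, and Pfkm fell with SSTC3. Eno2 was a small part of its pair, at 1.92% and 1.97% with the knockdown and 3.22% and 2.92% in the controls.

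**Figure D3:**
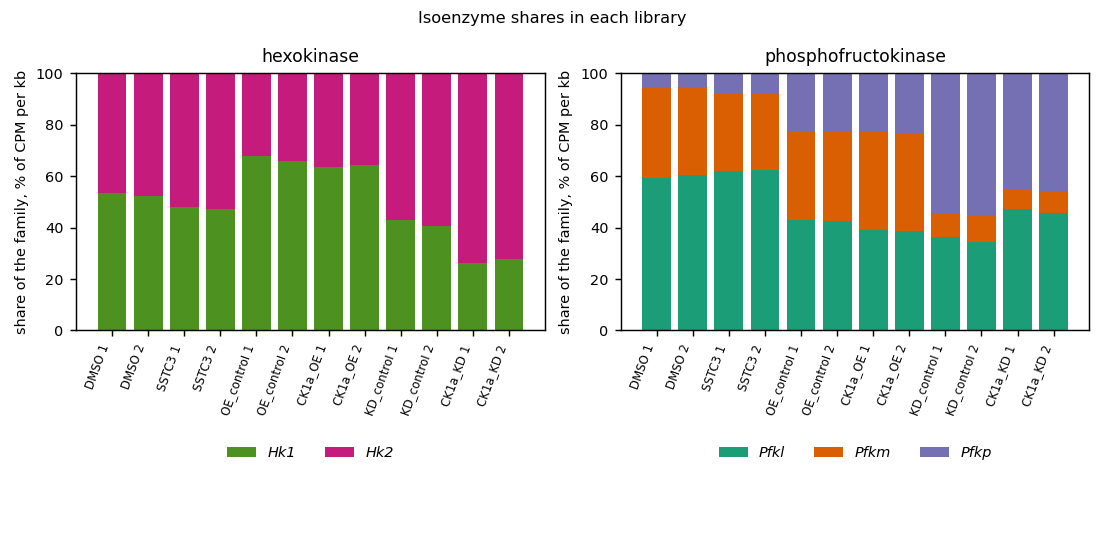
Share of each isoenzyme in its family (y axis, percent of summed CPM per kb) in each of the 12 libraries (x axis), for hexokinases (left) and phosphofructokinases (right). Pfkp makes up 5.50% to 8.16% in the DMSO and SSTC3 libraries and 44.9% to 55.3% in the knockdown set, and Hk2 is largest in the 2 knockdown libraries.

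The 2 transporters each passed in 2 sets. Slc2a1 (GLUT1), the basal glucose importer of most cells and a known HIF target, fell with the knockdown to 170.3 and 174 CPM from 289 and 276 CPM (−0.68 ± 0.05, adjusted p = 4.06e-20). It also fell with SSTC3, at 74 and 70.1 CPM against 107 and 100.2 CPM (−0.47 ± 0.06, adjusted p = 2.10e-13). With the overexpression label it had 80.1 and 81.2 CPM against 87.7 and 82 CPM and did not pass (−0.09 ± 0.05, adjusted p = 0.31). The groups did not overlap in any of the 3 sets. Slc16a3 (MCT4), which exports lactate, fell with SSTC3 to 20 and 22.7 CPM from 36.3 and 38.8 CPM (−0.76 ± 0.09, adjusted p = 6.48e-14). With the knockdown it rose from low counts, 10 and 11 in the controls to 57 and 52 (2.22 ± 0.40, adjusted p = 3.60e-06). The libraries labelled overexpression had 28 and 34 counts against 31 and 24 (adjusted p = 0.79).

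Both flux-regulating kinases rose with the knockdown. Pdk1, which inhibits pyruvate dehydrogenase and so keeps pyruvate out of mitochondria, had 67.7 and 67.8 CPM against 36.9 and 42.9 CPM there (0.80 ± 0.08, adjusted p = 3.02e-14). It fell with SSTC3, at 73.1 and 68.1 CPM against 87.4 and 84.8 CPM (−0.23 ± 0.06, adjusted p = 0.000476). Libraries labelled overexpression had 22.8 and 21.6 CPM against 21.4 and 18.4 CPM, and Pdk1 did not pass (0.15 ± 0.11, adjusted p = 0.421). Its groups did not overlap in any of the 3 sets. Pfkfb3 makes a fructose bisphosphate, the strongest activator of phosphofructokinase. Its counts with the knockdown were 91 and 91, against 40 and 61 (0.71 ± 0.25, adjusted p = 0.012), and without the first control library it no longer passed (0.51, adjusted p = 0.128), nor without the second knockdown library (0.68, adjusted p = 0.0613). With SSTC3 it had 50.8 and 55 CPM against 56.6 and 55.9 CPM (−0.03 ± 0.07, adjusted p = 0.701). The overexpression set had 50.4 and 50.2 CPM against 51.8 and 53.8 CPM (−0.08 ± 0.07, adjusted p = 0.469). Neither passed, and the level of Pfkfb3 in the knockdown set, 2.95 CPM in controls, was far below the 56.3 CPM of the DMSO group and the 52.8 CPM of the overexpression controls.

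Of the alpha subunits, Hif1a, the broadly expressed alpha subunit, fell with the knockdown to 104 and 110.4 CPM from 151 and 167 CPM (−0.53 ± 0.05, adjusted p = 6.82e-13). It rose in the libraries labelled overexpression, at 167 and 161 CPM against 144 and 141 CPM (0.19 ± 0.04, adjusted p = 0.00079). With SSTC3 it had 204 and 196 CPM against 216 and 216 CPM, lower in both treated libraries, and did not pass (−0.05 ± 0.04, adjusted p = 0.293), though with library totals as scaling it passed as lower (−0.11, adjusted p = 0.0236). Hif1a thus went down where 14 enzymes went up, and up where 9 went down. With SSTC3, where 8 enzymes fell and 3 rose, it was also lower in both treated libraries but did not pass. A link between Hif1a RNA and the enzymes was not tested. Epas1 (the alpha subunit EPAS1), best known from endothelium, was near the limit of detection in all sets. It rose with SSTC3, from 5 and 4 counts to 32 and 22 (2.60 ± 0.55, adjusted p = 1.60e-05). It had 17 and 15 counts with the overexpression label against 23 and 28 (adjusted p = 0.363), and 2 and 4 with the knockdown against 1 and 2, where it was not tested. For counts this low the standard error can be too small.

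Among the other HIF targets, Vegfa, the main growth factor of blood vessels, rose most with SSTC3. It had 296 and 309 CPM against 102 and 96.7 CPM (1.67 ± 0.05, adjusted p = 2.34e-101). With the knockdown it fell, at 151 and 143 CPM against 212 and 226 CPM (−0.54 ± 0.05, adjusted p = 5.24e-15). The overexpression set had 83.6 and 90.3 CPM against 83.7 and 75.9 CPM, and Vegfa did not pass there (0.11 ± 0.05, adjusted p = 0.19). Its groups did not overlap in the first 2 of these sets and overlapped in the third. Ndrg1, a stress-responsive gene, rose with SSTC3, at 99.5 and 91.5 CPM against 42.7 and 50.4 CPM (1.09 ± 0.06, adjusted p = 5.21e-40). It fell with the knockdown, at 322 and 336 CPM against 676 and 699.7 CPM (−1.03 ± 0.04, adjusted p = 3.12e-31). It rose slightly with the overexpression label, at 44.2 and 49.9 CPM against 39.4 and 39 CPM (0.25 ± 0.08, adjusted p = 0.0191), a call that leaving out either control library or the second treated library ended (log2 fold changes 0.16 to 0.26). P4ha1, a prolyl hydroxylase of collagen, followed Vegfa and Ndrg1 in direction, with 264 and 266 CPM against 215 and 215 CPM in the SSTC3 set (0.36 ± 0.04, adjusted p = 4.76e-15) and 167 and 166 CPM against 213 and 219 CPM in the knockdown set (−0.35 ± 0.05, adjusted p = 4.97e-09).

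**Figure D4:**
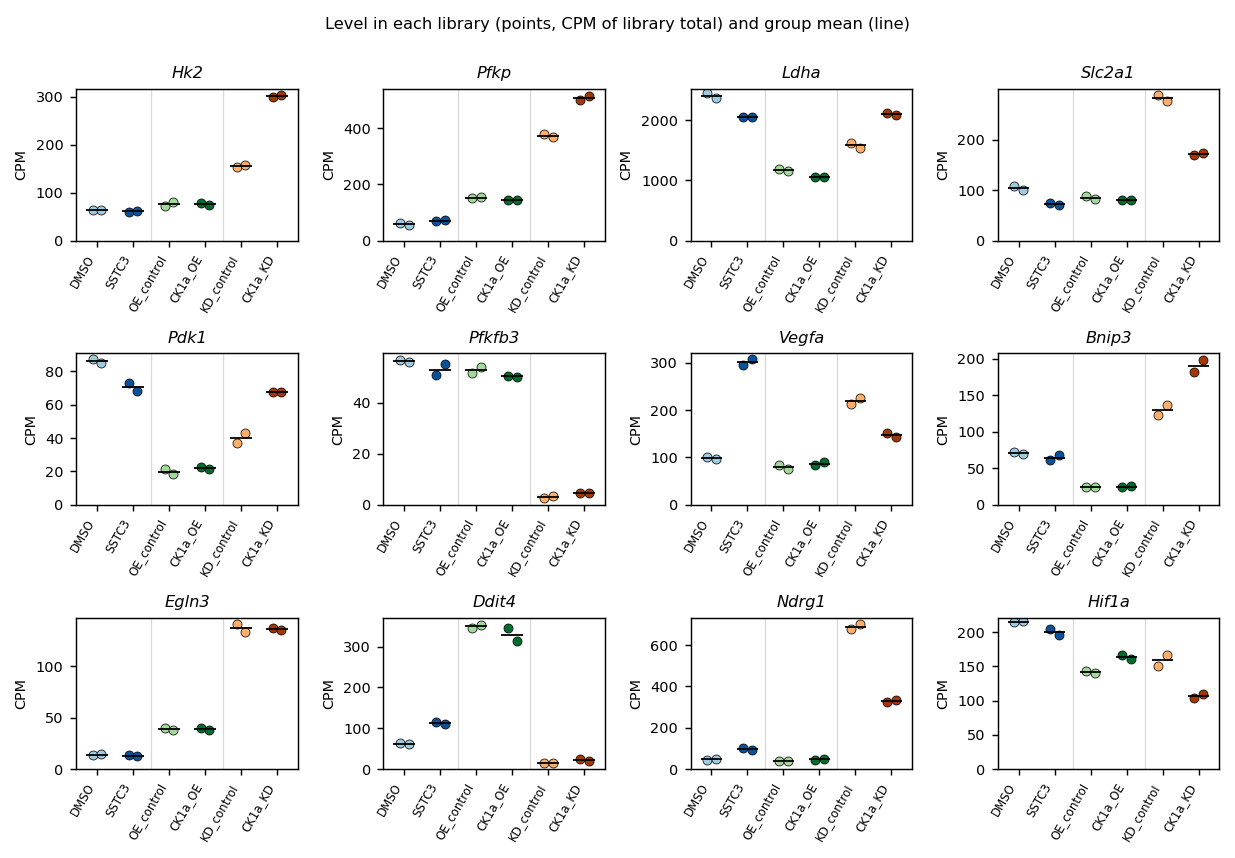
Level in CPM (y axis, from 0, a separate scale per gene) of 12 genes in each library (points) with the group mean (line), by group (x axis). Vegfa and Ndrg1 are higher with SSTC3 than with DMSO and lower with the knockdown than in its control, Hk2 is about level within the first 2 sets and higher with the knockdown, and the groups of Egln3 overlap within each set.

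Other targets rose with the knockdown along with the enzymes. Car9, the cell-surface carbonic anhydrase that is among the most HIF-dependent genes known, had 490.2 and 486 CPM against 282 and 289 CPM (0.81 ± 0.04, adjusted p = 1.47e-25). In the other sets it was counted at 1.47 and 2.24 CPM against 1.82 and 2.08 CPM with SSTC3 and 9.93 and 9.06 CPM against 11.6 and 11.1 CPM in the overexpression set, and did not pass. Egln1, the prolyl hydroxylase that marks HIF alpha, rose with the knockdown, at 78.7 and 76.5 CPM against 47.3 and 44.7 CPM (0.79 ± 0.07, adjusted p = 2.30e-15), and fell with SSTC3, at 109.6 and 119.9 CPM against 166 and 147 CPM (−0.39 ± 0.05, adjusted p = 2.26e-12). Ddit4 (REDD1), an inhibitor of mTORC1, rose with both. It had 116 and 111 CPM against 62.7 and 60.8 CPM with SSTC3 (0.93 ± 0.06, adjusted p = 9.95e-39). It had 23.8 and 20.9 CPM against 13.8 and 14.4 CPM with the knockdown (0.70 ± 0.12, adjusted p = 7.02e-07). In the overexpression set it stood at 345 and 314 CPM against 345 and 354 CPM (−0.10 ± 0.04, adjusted p = 0.0591), where it passed as lower only when the first treated library was left out (−0.17, adjusted p = 0.000165) or under a minimum of 1 CPM in 2 libraries (adjusted p = 0.0438).

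Bnip3, a mitochondrial protein of hypoxic mitophagy, rose with the knockdown, at 183 and 199 CPM against 123 and 137 CPM (0.59 ± 0.05, adjusted p = 1.04e-14). With SSTC3 it had 61.5 and 67.7 CPM against 72.1 and 69.1 CPM (−0.07 ± 0.06, adjusted p = 0.338). The overexpression set had 23.7 and 26.3 CPM against 24.3 and 24.8 CPM (0.01 ± 0.10, adjusted p = 0.966). Its groups did not overlap with the knockdown and with SSTC3, and it passed with the knockdown alone. Ankrd37 had the largest log2 fold change of the targets with the knockdown, from 15 and 5 counts to 33 and 32 (1.53 ± 0.49, adjusted p = 0.00628), and without the second control library it no longer passed (0.88, adjusted p = 0.177). Ero1l, the oxidase that drives disulfide formation in the endoplasmic reticulum, had 153 and 154 CPM against 114 and 112 CPM with SSTC3 (0.50 ± 0.05, adjusted p = 4.28e-19). It had 138 and 146 CPM against 125 and 122 CPM with the overexpression label (0.19 ± 0.04, adjusted p = 0.00167), where it did not pass without the second treated library (0.15, adjusted p = 0.0552). With the knockdown it had 873 and 882 CPM against 701 and 755 CPM (0.30 ± 0.04, adjusted p = 1.93e-09). Ero1l therefore rose in 3 of 3 comparisons. Mxi1, an antagonist of MYC, fell with the knockdown (−0.45 ± 0.09, adjusted p = 1.84e-05) and with SSTC3 (−0.20 ± 0.07, adjusted p = 0.00722), where it did not pass without the first SSTC3 library (−0.17, adjusted p = 0.0822).

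Egln3, the prolyl hydroxylase most strongly induced by hypoxia in many cells, did not pass in any set. Its level was 138 and 135 CPM against 141 and 134 CPM in the knockdown set (0.02 ± 0.05, adjusted p = 0.743), 13.7 and 12.4 CPM against 13.3 and 14.3 CPM in the SSTC3 set (−0.02 ± 0.13, adjusted p = 0.899) and 40.3 and 37.7 CPM against 39.8 and 37.7 CPM in the overexpression set (0.00 ± 0.08, adjusted p = 0.982). The groups overlapped in all 3 sets. P4ha2, another collagen prolyl hydroxylase, passed in no set (−0.16 ± 0.08 with the knockdown, 0.08 ± 0.06 with SSTC3 and −0.09 ± 0.06 with the overexpression label), but with the knockdown it passed as lower with library totals (adjusted p = 0.0226), in the fit of all 12 libraries (adjusted p = 0.0123) and under a minimum of 1 CPM (adjusted p = 0.0367).

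The 3 comparisons share no library, so their effects were tested against each other in 1 fit of all 12 libraries. Treatment and set of cells change together between the comparisons. A difference of effects therefore cannot be assigned to the treatments rather than to the cells, batch or annotation of the sets. SSTC3 and knockdown effects differed for 30 of 34 genes, beside 45.1% of 17105 genes tested. Over all those genes the effect of SSTC3 was higher for 23.5% and lower for 21.6%. The effect of SSTC3 was the higher one for 9 genes and the lower one for 21. For enzymes it was lower in 14 of 16 and higher in none, and for the other targets it was higher in 7 of 12 and lower in 4. Vegfa differed by 2.24 ± 0.07, adjusted p = 1.78e-47 (SSTC3 minus knockdown, log2 scale). Ndrg1 differed by 2.15 ± 0.07, adjusted p = 2.17e-32, and Pfkl by −1.29 ± 0.06, adjusted p = 2.55e-33. Vegfa and Ndrg1 thus lay opposite to Pfkl in this contrast. Some of the 30 depended on the settings. Gapdh (−0.96, adjusted p = 0.0412) no longer passed with a replicate block (adjusted p = 0.0914) or in 10 of the 12 fits that left out 1 library (adjusted p 0.0651 to 0.115). With library totals Ddit4 (adjusted p = 0.079) and Mxi1 (adjusted p = 0.0605) did not pass, and each also lost its call in 4 of those 12 fits. Car9 and P4ha2 lost theirs in 2 of them, and Ankrd37 and Pfkfb3 in 1. The libraries labelled overexpression differed in effect from the knockdown for 28 of 34 genes, beside 35.1% of all genes (16.8% higher and 18.3% lower). Of the enzymes, 13 were lower, 1 higher (Eno2) and 2 did not pass. Hk2 differed there by −0.97 ± 0.07, adjusted p = 9.73e-21, and Hif1a by 0.76 ± 0.07, adjusted p = 1.02e-16. Ankrd37 differed there at an adjusted p of 0.0478 and did not pass with library totals (adjusted p = 0.0512), with RLE size factors (adjusted p = 0.0512) or in 9 of the 12 fits that left out 1 library, and Hk1 did not in 3 of them. Between SSTC3 and the overexpression label, 18 genes differed, beside 32.7% of all genes, of which Vegfa differed by 1.55 ± 0.07, adjusted p = 2.24e-33. In that contrast 9 of 16 enzymes did not pass, among them Hk2 (0.01 ± 0.08, adjusted p = 0.98) and Ldha (−0.02 ± 0.04, adjusted p = 0.829). With library totals, Aldoa (adjusted p = 0.0693), Eno1 (adjusted p = 0.19) and Pgk1 (adjusted p = 0.0634) also did not pass there, while Pgam1 (adjusted p = 0.00315) and Hk1 (adjusted p = 0.043) did. Leaving out 1 library ended the calls of Eno1, Pdk1 and Slc16a3 in 1 to 2 fits and, without the second library labelled overexpression, Gapdh passed (−1.18, adjusted p = 9.18e-13).

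Levels across the 6 groups differed more between the sets of cells than within them for many of the genes. Cell set, batch and annotation cannot be told apart here, so these are descriptions with no test. Car9 ranged from 1.86 CPM with SSTC3 to 488 CPM with the knockdown, and Aldoc from 0.725 to 97.6 CPM. Ndrg1, Egln3 and Ero1l were likewise highest in the knockdown set, at 688, 138 and 728 CPM in its controls, beside 46.5, 13.8 and 113 CPM with DMSO. The reverse held for Slc16a3, at 37.6 CPM with DMSO and 0.619 CPM in the knockdown controls, and for Pfkfb3.

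Further genes of the pathway were read from 4 lists. Their counts stand beside 28.3% of all genes tested that rose and 26.4% that fell with the knockdown, 27.1% and 26.5% with SSTC3, and 5.78% and 7.57% with the overexpression label. The lists are short and their counts were not tested, so nothing particular to a list is read from them. Of 15 regulators of HIF, 13 were tested with the knockdown and 4 rose and 5 fell, led, in order of adjusted p as below, by Cited2, which competes with HIF for its coactivators (−1.14 ± 0.07, adjusted p = 2.86e-23), the elongin subunit Elob (−0.31 ± 0.05, adjusted p = 3.26e-08) and the partner subunit Arnt (−0.51 ± 0.08, adjusted p = 3.67e-08). With SSTC3 3 of 14 rose and 5 fell, led by the ubiquitin ligase Siah2, which acts on prolyl hydroxylases (1.45 ± 0.07, adjusted p = 9.75e-51), Cited2 (0.38 ± 0.05, adjusted p = 1.01e-12) and Arnt2 (−0.71 ± 0.10, adjusted p = 1.76e-11). With the overexpression label 3 of 14 rose and 1 fell, among them Cited2 (−0.22 ± 0.05, adjusted p = 0.000356), Arnt (0.22 ± 0.05, adjusted p = 0.00269) and the coactivator Crebbp (0.21 ± 0.05, adjusted p = 0.00447). Cited2 thus passed in each comparison, higher with SSTC3 and lower in the other 2 sets.

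Of 30 further hypoxia-responsive genes, 13 of 25 tested rose and 8 fell with the knockdown (median 0.24), led by Angptl4, a lipoprotein lipase inhibitor (1.86 ± 0.05, adjusted p = 1.61e-43), the adenylate kinase Ak4 (1.38 ± 0.08, adjusted p = 3.23e-24) and Rsbn1 (−0.96 ± 0.06, adjusted p = 9.94e-23). With SSTC3 10 of 28 rose and 7 fell (median 0.08), among them the heme oxygenase Hmox1 (1.84 ± 0.06, adjusted p = 4.29e-93) and Angptl4 (1.39 ± 0.07, adjusted p = 1.67e-55). Of 27 with the overexpression label 3 rose and 4 fell (median 0.02), among them the collagen cross-linking enzyme Lox (−0.28 ± 0.04, adjusted p = 2.63e-07) and Hmox1 (0.17 ± 0.04, adjusted p = 0.000994). Angptl4 was thus higher with both SSTC3 and the knockdown.

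Of the other glucose and lactate genes, 2 of 19 rose and 7 fell with the knockdown (median −0.01). Pdk4, another inhibitor of pyruvate dehydrogenase, moved opposite to Pdk1 (−1.86 ± 0.12, adjusted p = 4.22e-22), Slc16a1, the lactate transporter MCT1, fell (−0.43 ± 0.04, adjusted p = 2.68e-13), and Ldhb, the other lactate dehydrogenase subunit, rose (0.55 ± 0.06, adjusted p = 5.49e-12). With SSTC3 5 of 18 rose and 3 fell, led by Slc16a1 (0.35 ± 0.04, adjusted p = 3.34e-15), Pdhb (0.22 ± 0.05, adjusted p = 3.07e-05) and Gpd1l (−0.38 ± 0.09, adjusted p = 0.000195). With the overexpression label none of 18 rose and 4 fell, led by the muscle enolase Eno3 (−0.67 ± 0.05, adjusted p = 2.49e-14), Pdha1 (−0.14 ± 0.04, adjusted p = 0.0167) and Pdk3 (−0.16 ± 0.05, adjusted p = 0.0255). Of the 7 enzymes of the pentose phosphate pathway, which branches from glucose 6-phosphate, 3 rose and 1 fell with the knockdown. These were Pgd (0.77 ± 0.05, adjusted p = 9.85e-23), Tkt (0.73 ± 0.05, adjusted p = 5.73e-22) and G6pdx (0.79 ± 0.06, adjusted p = 3.56e-17) upward. With SSTC3 G6pdx (−0.56 ± 0.05, adjusted p = 8.11e-20) and Pgd (−0.32 ± 0.05, adjusted p = 6.58e-10) fell and 2 rose, Rpia among them (0.44 ± 0.11, adjusted p = 0.000152), and with the overexpression label Pgd alone passed (−0.19 ± 0.04, adjusted p = 0.000988).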

How the data were processed

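Reads of polyadenylated RNA were aligned with HISAT2 to mm10 and counted with featureCounts by the authors, per the submitters' processing notes. The values they deposited are raw read counts per Ensembl gene in 12 libraries (6 groups of 2), between 16063627 and 19427506 counts each. The sources used here do not state versions, strand setting or the treatment of multiply mapped reads. The overexpression files list 55401 features and no mitochondrial counts, and the others 54532. Symbols, exon lengths and transcripts came from GENCODE M21 and promoters from RefSeq.

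Each comparison was fitted on its 4 libraries with edgeR 4.0.16 in R 4.3.3 (quasi-likelihood, robust, TMM factors, filterByExpr, no block), with Benjamini-Hochberg adjustment over all genes tested and a threshold of 0.05. Differences between effects were contrasts in 1 fit of 12 libraries. SE is the absolute log2 fold change divided by the square root of F. Simulated counts with 200 changed genes were used to check the fit. Replicate pairs differed by 2.29 to 3.61 chi-square per degree of freedom, more than sampling noise. The alternatives were other scaling and filters, DESeq2 1.42.0, a fold minimum, a replicate block, all 12 libraries and each library left out.

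The genes and lists were chosen with earlier results of these data known. Values are given for a panel of 12 genes, for the 4 enzymes and 4 other HIF targets with the largest changes that passed in each comparison, and for up to 3 genes per further list with the smallest adjusted p. Other genes named were chosen after their values were seen. Some genes that the rule takes are left out of the text.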

Additional observations from a re-analysis of the deposited data

How the results depend on the processing

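Requiring an absolute log2 fold change of at least 0.5 as well left 3366 genes with SSTC3, 278 with the overexpression label and 4445 with the knockdown. Of the 34 genes it left 5, 0 and 22, in the same order. With the overexpression label, 1863 genes were called, against 607 with DESeq2, 1188 in the fit of all 12 libraries and 1065 to 1514 when 1 library was left out. Medians moved by more than their spread between libraries as follows. The enzyme median with SSTC3 (−0.11) was −0.17 with library totals, −0.13 with no filter, −0.12 in the fit of all 12 libraries, −0.16 for members at 10 CPM or more, −0.17 for members sharing under 10% of their stretches (an alternative chosen after seeing the data) and −0.14 to −0.08 with 1 library left out. That of the other HIF targets with SSTC3 (0.03) changed sign, at −0.02 with library totals and −0.01 to 0.19 with 1 library left out, and was 0.01 with no filter and 0.22 at 10 CPM or more, so it has no stable direction. The enzyme median with the overexpression label (−0.10) was −0.09 with library totals, −0.11 under a minimum of 1 CPM, −0.06 for members sharing little sequence and −0.12 to −0.09 with 1 library left out. With the knockdown, the enzyme median (0.57) was 0.76 for members sharing little sequence, and that of the other targets (0.16) was 0.13 with library totals, 0.13 in the fit of all 12 libraries and 0.02 at 10 CPM or more. With DESeq2, Mxi1 with SSTC3, Aldoa, Pgam1 and Ndrg1 with the overexpression label, and Ankrd37 and Pfkfb3 with the knockdown no longer passed, and in the fit of all 12 libraries Gapdh with SSTC3 and Aldoa with the overexpression label did not. The causes were not tested. Replicate numbers did not pair libraries (correlations of same-numbered deviations −0.0156, −0.0096 and 0.00504), and with a replicate block 7303, 1768 and 8066 genes and 21, 11 and 30 of the 34 genes were called. Depth limits Epas1, Ankrd37, Slc16a3, Aldoc, Car9 and Pfkfb3 most, each at 91 counts or fewer in all 4 libraries of at least 1 set.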
